A study of Mus musculus with 6 samples.

Results

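The genes described here are the sensors and transcription factors of the unfolded protein response (UPR), together with the proteases that release some of them from the membrane. There are 9 of them among the 54446 genes with deposited values, and they were chosen by name: *Ern1*, *Atf6*, *Atf6b*, *Eif2ak3*, *Xbp1*, *Creb3*, *Creb3l2*, *Mbtps1* and *Mbtps2*. Their transcripts were measured in B cells from the spleens of WT mice and of a *Tent5c* KO line made with CRISPR/Cas9, which were cohoused littermates from heterozygous matings on a mixed C57BL/6J X CBA background, 12 to 15 weeks old. TENT5C is a cytoplasmic poly(A) polymerase. In both genotypes, naive B cells were isolated by negative selection and cultured for 7 days under activation by IL-4 (20 ng/ml) together with LPS (20 µg/ml), and ribodepleted total RNA was sequenced in strand-specific libraries. There were 3 KO and 3 WT libraries. A replicate number joined 1 KO with 1 WT littermate and was also the batch, and these are called pairs 1, 2 and 3.

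The UPR matches the folding capacity of the endoplasmic reticulum (ER) to the load of secretory proteins, and it is needed when B cells become antibody-secreting plasma cells. It has 3 arms. IRE1 (gene *Ern1*) cuts a short segment out of the *Xbp1* mRNA, and the spliced mRNA encodes an active transcription factor for ER genes. ATF6 and its paralog ATF6B leave the ER under stress and are cut by the site 1 protease (*Mbtps1*) and the site 2 protease (*Mbtps2*), which frees a transcription factor for chaperone genes. PERK (*Eif2ak3*) phosphorylates the translation factor eIF2α and slows protein synthesis. CREB3 and CREB3L2 are ER-bound transcription factors of the same design as ATF6, cut by the same proteases.

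Each library had between 5393558 and 6793520 fragments on genes, and the values are normalized counts (fragments divided by a size factor of the library). All 9 genes had fragments in all 6 libraries, between 43 and 7145 per gene and library, and all 9 passed the minimum mean of 10 normalized counts that left 12322 genes for testing. *Tent5c* itself was not lower in the libraries labelled KO (1993, 993 and 1170 normalized counts in pairs 1, 2 and 3, against 1255, 767 and 1584 in WT), so the level of this gene does not check the labels, and the genotypes are taken from them. Of the B cell markers, *Ms4a1* (CD20) was high in every library (9152 to 12045 normalized counts). Other cells left few traces. The 10 T cell markers summed to between 33.4 and 59.9 normalized counts in KO and between 30.3 and 110 in WT, the 10 myeloid markers to between 69.6 and 163 and between 119 and 167, the 7 NK cell markers to between 28.6 and 73.5 and between 22.0 and 67.4, and the 7 erythroid markers to at most 5.72, with *Cd3e* at no more than 4.82 and *S100a8* and *S100a9* at 0.

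The segment that IRE1 removes shows why the counts of *Xbp1* hold both forms of its mRNA. It lies in exon 4 of the 5 exons of the annotated transcript, on the plus strand of chromosome 11 of GRCm38 from 5524279 to 5524304, between a pair of cut sites that share the letters CNGCAGC. It is 26 bases long and is printed here because the fragments counted on *Xbp1* exons come from mRNA with and without it.
Xbp1 segment: cagcactcagactatgtgcacctctg
With the segment in place, the reading frame of the annotated transcript has 267 codons. Without it, the frame shifts and has 371 codons, which is the form that encodes the active factor. A gene-level count cannot tell these forms apart, so every value of *Xbp1* below is total *Xbp1* mRNA.

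None of the 9 genes passed the test between the genotypes. In limma with the pairs in the model, 0 of 9 had an adjusted *p*-value under 0.05, where 0% of the 12322 genes tested did, and 0 of 9 had an unadjusted *p*-value under 0.05, against 3.03% of all genes lower and 1.67% higher in KO. In DESeq2, 0 of 9 passed in either direction, against 0.222% of all genes lower and 0.0101% higher. In edgeR, 0 of 9 passed, as did 0% of all genes. At an unadjusted *p*-value under 0.05, edgeR had 0 of 9, against 2.99% of all genes lower in KO and 1.62% higher. The genotypes overlapped for all 9 (over all genes tested, 3.44% were lower and 3.39% higher in KO without overlap). Their median log2 fold change of KO over WT was −0.037, beside 0.00067 over all genes tested. In the individual pairs, however, *Xbp1*, *Ern1*, *Atf6* and *Creb3l2* did not stay level. They were higher in KO in pair 1 (within counting error for *Ern1*) and lower in pair 3. *Atf6b* lay outside counting error in pair 3 only and *Eif2ak3* in pair 1 only, while *Creb3*, *Mbtps1* and *Mbtps2* stayed within it in all 3 pairs. Counting error shrinks as fragments increase, so this sorting partly follows depth. The share of all genes outside counting error was not counted.

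**Figure D1:**
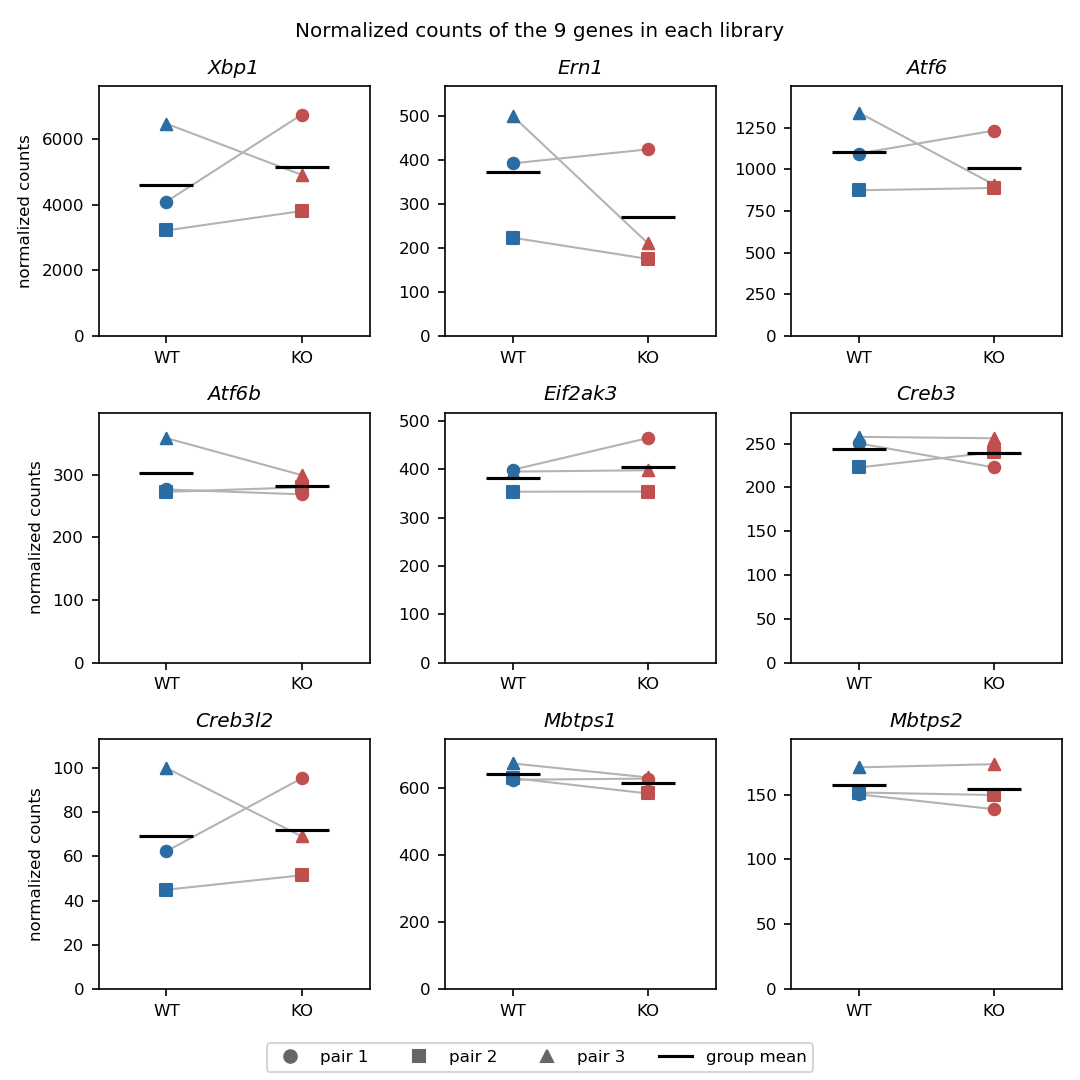
Normalized counts of each gene (vertical axes, from 0) in the WT (blue) and KO (red) libraries, where symbols mark the pair, grey lines join littermates and black bars are group means (n = 3 per genotype). Lines cross in every panel except those of *Eif2ak3* and *Mbtps2*, and the groups overlap in all 9 panels.

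The sensor of the first arm, *Ern1* (ENSMUSG00000020715), is on chromosome 11 of GRCm38 (minus strand, 106394650 to 106487852). In pairs 1, 2 and 3 the WT libraries had 393, 224 and 501 normalized counts of *Ern1* and 425, 175 and 211 in the KO libraries. KO library 1 was therefore above 2 of the WT libraries, and KO libraries 2 and 3 were the lowest of the 6. The mean was 372 ± 140 (SD, n = 3) in WT and 270.2 ± 135 (SD, n = 3) in KO, with a fitted log2 change of −0.49 (SE 0.23; limma, adjusted *p* = 0.970, unadjusted *p* = 0.0766). This is the largest fold change of the 9, and it rested on pair 3. The log2 ratio of KO over WT was 0.11 in pair 1 (95% counting interval −0.083 to 0.31), −0.35 in pair 2 (−0.64 to −0.060) and −1.25 in pair 3 (−1.49 to −1.01). Without replicate 3 the log2 fold change was −0.12, without replicate 1 it was −0.80 (adjusted *p* = 0.0632 from limma), and in DESeq2 the unadjusted *p*-value was 0.0475 and the adjusted 1.00. The interval of the fitted change reached from a 0.480-fold to a 1.05-fold level, so a fall of *Ern1* by that much or no fall were both within it.

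*Xbp1* (ENSMUSG00000020484, chromosome 11, plus strand, 5520659 to 5525893), the substrate of IRE1 and the transcription factor of this arm, was among the most abundant transcripts, with more normalized counts than 98.9% of the genes tested. It had 4092, 3215 and 6463 normalized counts in the WT libraries of pairs 1, 2 and 3 and 6743, 3806 and 4906 in the KO libraries. The highest library was KO in pair 1 and the next was WT in pair 3, and the lowest was WT in pair 2. The mean was 4590 ± 1680 (SD, n = 3) in WT and 5152 ± 1484 (SD, n = 3) in KO, with a fitted log2 change of 0.19 (SE 0.19; limma, adjusted *p* = 0.970) and an interval from a 0.833-fold to a 1.56-fold level. With 3075 to 7145 fragments per library, counting error was small, and all 3 pairs lay outside it in different directions. *Xbp1* was higher in KO by a log2 ratio of 0.72 in pair 1 (counting interval 0.67 to 0.78) and 0.24 in pair 2 (0.18 to 0.31), and lower in pair 3 (−0.40, −0.45 to −0.34). Without replicate 1 the log2 fold change turned to −0.077, and without replicate 3 it was 0.48.

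**Figure D2:**
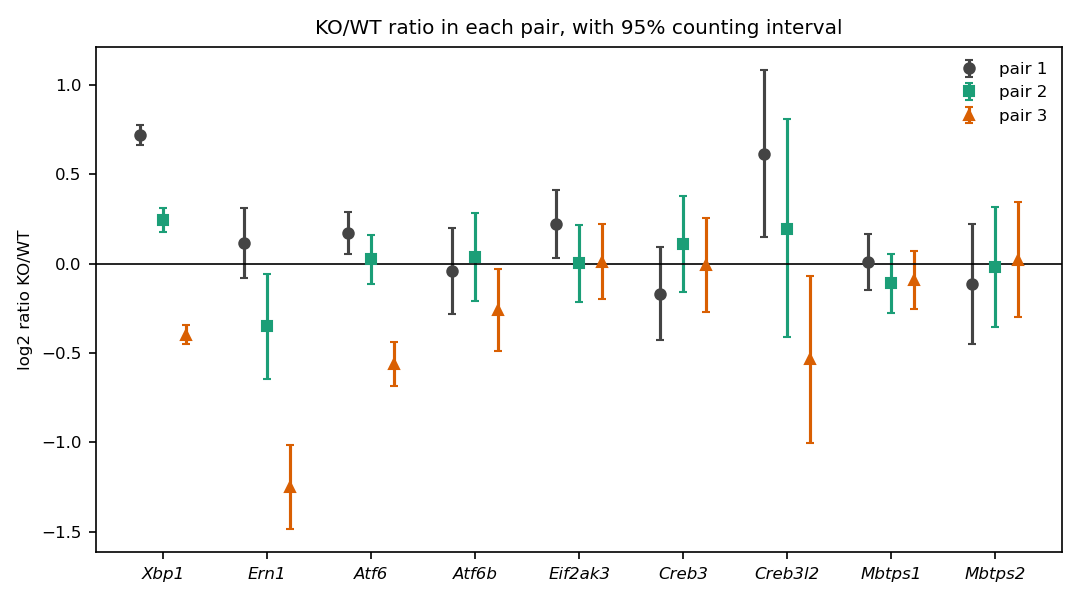
Log2 ratio of KO over WT normalized counts (vertical axis) in pair 1 (circles), pair 2 (squares) and pair 3 (triangles) for each gene, with bars for the 95% counting interval (exact binomial on fragments, counting error only). *Xbp1* reaches from 0.72 to −0.40 and *Ern1* from 0.11 to −1.25, while the 3 pairs of *Mbtps1* and *Mbtps2* lie around 0.

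The KO over WT ratios of *Xbp1* and *Ern1* each spread widely over the pairs (SD of the log2 ratio 0.56 and 0.69, n = 3 pairs), but the change of one relative to the other did not. Per kilobase of exon, *Xbp1* was 26.2, 36.2 and 32.5 times as high as *Ern1* in the WT libraries of pairs 1, 2 and 3, and 40.0, 54.6 and 58.6 times in the KO libraries. All 3 KO libraries were above all 3 WT libraries. This ratio does not depend on how libraries are scaled, since both genes come from the same library. The log2 change of *Xbp1* minus that of *Ern1* was 0.61, 0.59 and 0.85 in the pairs, with a mean of 0.68 ± 0.14 (SD, n = 3 pairs). The difference was higher in 3 of 3 pairs, and an exact sign permutation test of it gave *p* = 0.25 (two-sided), which is the smallest that 3 pairs allow. Any ratio with the same sign in all 3 pairs gives this value, so the test adds nothing to the signs. With all genes expressed relative to *Xbp1* in limma, the log2 change of *Ern1* was −0.68 (SE 0.43; adjusted *p* = 0.990), and between −0.73 and −0.60 without each replicate in turn. This fit shares its estimate of the spread with all genes, and so includes the variation of *Xbp1* against them. The ratio was chosen after the values were seen, from 36 ratios between the 9 genes, of which 8 had the same sign in all 3 pairs. A ratio with no change would have the same sign in all 3 pairs with a chance of 0.25, and 8 of 36 is not above that share. How many of the other ratios kept the genotypes apart was not counted. Of the 12321 other genes, 8.82% were lower relative to *Xbp1* in all 3 KO libraries and 0.576% higher.

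*Xbp1* is strongly expressed in plasma cells, and several markers of that stage differed between the same libraries. The log2 ratio of *Prdm1* (BLIMP1, a master regulator of plasma cells) was 0.80, 0.0060 and −0.52 in pairs 1, 2 and 3, that of *Irf4* 0.34, −0.037 and −0.33, and that of *Sdc1* (CD138) 0.34, 0.026 and −0.50, all with 1 added to the counts. *Jchain*, which joins polymeric antibodies, gave 0.42, −0.24 and −1.57. The markers were not alike in pair 1, where *Mzb1*, an ER protein of antibody-secreting cells, was lower in KO (−0.12, −0.20 and −0.67 in pairs 1, 2 and 3; limma, unadjusted *p* = 0.0230, adjusted 0.970), and *Slamf7* gave −0.027, 0.26 and −0.16. The 8 plasma cell markers together had 13414, 10211 and 20017 normalized counts in WT and 15255, 9430 and 11237 in KO, so the KO library was the higher of pair 1 and the lower of pairs 2 and 3. *Jchain* and *Mzb1* made up much of these sums (in pair 2, 2573 and 4102 in WT and 2171 and 3568 in KO). Without them the order in pair 2 would turn. *Tnfrsf17* was the only one of the 8 at no more than 2 fragments in every library. In bulk RNA, fewer cells of a type and less RNA per cell cannot be told apart, and the part of these markers in the changes of *Xbp1* and *Ern1* was not tested.

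**Figure D3:**
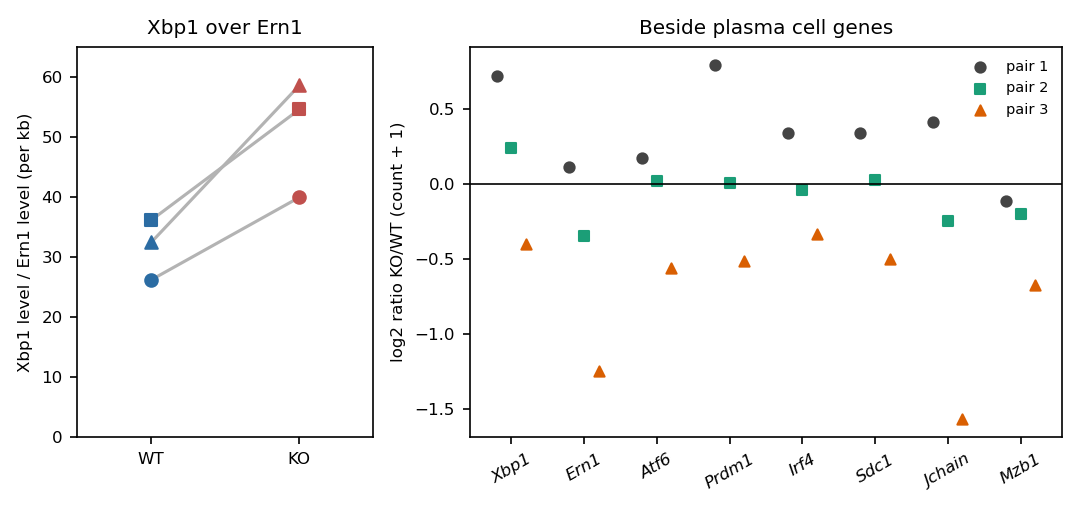
Left, the level of *Xbp1* divided by that of *Ern1* (both per kilobase) in each library, with lines joining littermates, where the KO libraries (40.0 to 58.6) lie above the WT libraries (26.2 to 36.2). This ratio was chosen after the values were seen, and how many other ratios kept the genotypes apart was not counted. Right, log2 ratio of KO over WT (1 added to counts) in pairs 1 (circles), 2 (squares) and 3 (triangles) for *Xbp1*, *Ern1*, *Atf6* and 5 plasma cell genes, where each gene has its lowest ratio in pair 3.

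*Atf6* (ENSMUSG00000026663, chromosome 1, minus strand, 170704674 to 170867771), the sensor of the second arm, had 1095, 874 and 1340 normalized counts in the WT libraries of pairs 1, 2 and 3 and 1233, 888 and 907 in the KO libraries. The libraries of pair 2 were alike, and the difference lay in pair 3, where WT was the highest of all 6. The fitted log2 change was −0.12 (SE 0.14; limma, adjusted *p* = 0.970), with an interval from a 0.730-fold to a 1.16-fold level, and it turned to 0.097 without replicate 3. In the pairs the log2 ratio was 0.17 (counting interval 0.056 to 0.29), 0.023 (−0.11 to 0.16) and −0.56 (−0.69 to −0.44).

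Its paralog *Atf6b* (ENSMUSG00000015461, chromosome 17, plus strand, 34647146 to 34655074) moved less. It had 277, 273 and 359 normalized counts in WT and 269, 280.2 and 299.6 in KO, so that 1 library, WT of pair 3, stood above the other 5. The fitted log2 change was −0.087 (SE 0.094; limma, adjusted *p* = 0.970), and −0.0013 without replicate 3.

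*Eif2ak3* (ENSMUSG00000031668, chromosome 6, plus strand, 70844515 to 70905245), which encodes PERK, was the only one of the 9 that was higher in KO in all 3 pairs, where 11.7% of all genes tested were, and none of the 9 was lower in all 3 (13.1% of all genes). It had 399, 353 and 395 normalized counts in WT and 464, 354 and 398 in KO. In pairs 2 and 3 the KO library was 1.00-fold and 1.01-fold as high as its littermate, and in pair 1 it was 1.17-fold as high (log2 ratio 0.22, counting interval 0.030 to 0.41). The log2 fold change of 0.077 (SE 0.083; limma, adjusted *p* = 0.970) therefore came from pair 1, and without replicate 1 it was 0.0055. Its interval reached from a 0.919-fold to a 1.21-fold level.

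Of the ER-bound factors related to ATF6, *Creb3* (ENSMUSG00000028466, chromosome 4, plus strand, 43562332 to 43567060) had 250.3, 223 and 258 normalized counts in WT and 223, 240.2 and 256 in KO. The ranges of the genotypes were nearly the same, and the fitted log2 change was −0.023 (SE 0.096; limma, adjusted *p* = 0.992). *Creb3l2* (ENSMUSG00000038648, chromosome 6, minus strand, 37327255 to 37442146) was the scarcest of the 9. It had 62.3, 45.0 and 99.9 normalized counts in WT and 95.3, 51.5 and 69.0 in KO. Its order of libraries was close to that of *Xbp1*, with WT of pair 3 and KO of pair 1 at the top and WT of pair 2 at the bottom. With at most 101 fragments in a library, the counting intervals of its pairs were wide (for example −0.41 to 0.81 around a log2 ratio of 0.20 in pair 2), and the fitted log2 change was 0.089 (SE 0.23; limma, adjusted *p* = 0.984). Without replicate 1 it was −0.17, and without replicate 3 it was 0.40.

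The KO over WT ratios of the proteases varied least between pairs, with an SD of the log2 ratio of 0.063 for *Mbtps1* and 0.069 for *Mbtps2* (n = 3 pairs). *Mbtps1* (ENSMUSG00000031835, chromosome 8, minus strand, 119508156 to 119558735) had 623, 628 and 672 normalized counts in WT and 627, 582 and 630.2 in KO, a 1.15-fold range over the 6 libraries. Its log2 fold change was −0.065 (SE 0.068; limma, adjusted *p* = 0.970), and its interval was the narrowest of the 9, from a 0.854-fold to a 1.07-fold level. *Mbtps2* (ENSMUSG00000046873, X chromosome, minus strand, 157535371 to 157598715) had 150.2, 152 and 171 normalized counts in WT and 139, 149.6 and 173 in KO, with a fitted log2 change of −0.037 (SE 0.10; limma, adjusted *p* = 0.988). Both libraries of pair 3 were the highest, so the pairs differed more than the genotypes: 91.1% of the sum of squares of its log2 values lay between pairs and 2.71% between genotypes. For the other 8 genes, the share between pairs was 50.8% to 76.9% and the share between genotypes 1.15% to 29.4%, the highest being that of *Mbtps1*. Pairs have more degrees of freedom than genotypes, so their share is the larger on average even without any difference.

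Levels were compared between genes as normalized counts per kilobase of exon, from all annotated exons of a gene. The order of genes at close levels therefore depends on the annotation as well as on the libraries. *Xbp1* was at 1500 ± 447 (SD over the 6 libraries), between 10.5 and 15.5 times the level of *Atf6* in each library. *Atf6* (114 ± 21.5), *Atf6b* (106 ± 12.3) and *Creb3* (102 ± 6.69) followed, and their ranges overlapped, with *Atf6* above *Atf6b* in 3 of 6 libraries. *Eif2ak3* (65.3 ± 6.75) and *Mbtps1* (59.5 ± 2.69) overlapped as well, with *Eif2ak3* above in 5 of 6 libraries. *Ern1* came next at 39.3 ± 16.5 and was below *Mbtps1* in 6 of 6 libraries, by 1.04 to 2.58 times. *Mbtps2* (15.4 ± 1.34) and *Creb3l2* (9.68 ± 3.11) were the lowest. *Mbtps2* shares 2867 of its 10105 exon bases with *Yy2* on the same strand, where the fragments cannot be assigned to either gene, so its level per length is a low estimate. *Creb3* and *Eif2ak3* share 493 and 485 exon bases with genes on the opposite strand, which the strand-specific counting keeps apart.

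**Figure D4:**
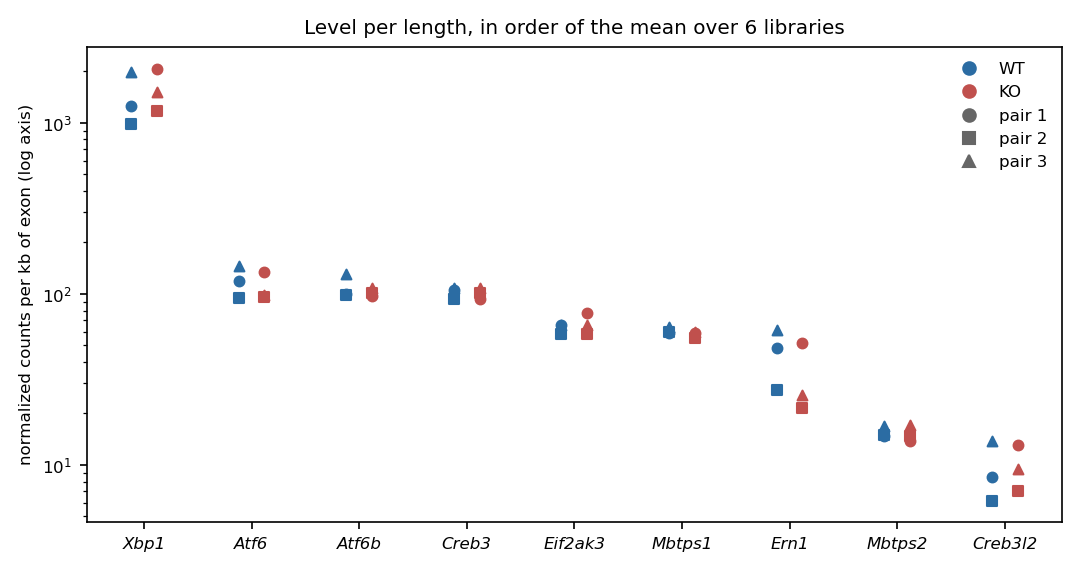
Normalized counts per kilobase of exon (log axis) of the 9 genes in each WT (blue) and KO (red) library, with symbols for the pairs, in order of the mean over the 6 libraries. *Xbp1* lies between 990 and 2076 and the other 8 between 6.17 and 145.

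Several paralogs of these genes that act in other tissues had no or next to no fragments. *Ern2*, the second IRE1 gene, and *Creb3l3*, a liver factor, had 0 fragments in all 6 libraries, which allows up to 2.72 to 3.61 normalized counts depending on the library. *Creb3l1* and *Creb3l4* had at most 2 and 1 fragments. The other 3 kinases of eIF2α were expressed and did not pass the test: *Eif2ak1* (heme-regulated) at 252 to 271 normalized counts, *Eif2ak2* (PKR, activated by double-stranded RNA) at 345 to 513 and *Eif2ak4* (GCN2, activated by amino acid shortage) at 341 to 422, with log2 fold changes of 0.046, −0.031 and 0.090.

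Downstream of the 9 genes, most tested genes listed for the ATF6 arm and for the IRE1-XBP1 arm were lower in KO in all 3 pairs. The lists of partners and targets were drawn up with earlier results of these data known, and in limma 0 genes on them had an adjusted *p*-value under 0.05. Of all genes tested, 13.1% were lower and 11.7% higher in KO in all 3 pairs, and 3.03% were lower at an unadjusted *p*-value under 0.05, and the counts of each list are to be read beside these shares. Of 15 genes tested in the ATF6 arm, 15 had a negative log2 fold change, 13 were lower in KO in all 3 pairs and 12 had an unadjusted *p*-value under 0.05, with a median of −0.32. In the IRE1-XBP1 arm, 17 of 20 were negative, 12 lower in all 3 pairs and 6 lower at an unadjusted *p*-value under 0.05, with a median of −0.17. The 3 positive genes, *Map3k5* (0.17), *Bax* (0.025) and *Bak1* (0.037), are on the list as partners of IRE1, not as targets of XBP1. Other partners, such as *Rtcb* and *Traf2*, are on it too, so its median is not that of XBP1 targets. The lists mix partners and targets unequally, and their medians do not rank the targets of the arms. In the PERK arm, 12 of 16 were negative, 7 lower in all 3 pairs and 3 lower at an unadjusted *p*-value under 0.05, with a median of −0.072. In all, 3 genes stand on more than 1 of these lists. Of 9 substrates and regulators of the site 1 and site 2 proteases, 4 were negative and 1 was lower and 2 were higher in all 3 pairs, with a median of 0.0038, so that the counts in all 3 pairs were near the shares over all genes. The median log2 ratio of the ATF6 arm was −0.13, −0.33 and −0.59 in pairs 1, 2 and 3, and the 7 tested plasma cell markers also had their lowest ratios in pair 3. Their part in the values of these lists was not tested. Over all genes tested, 49.8% were negative, 50.2% were positive and the median was 0.00067.

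**Figure D5:**
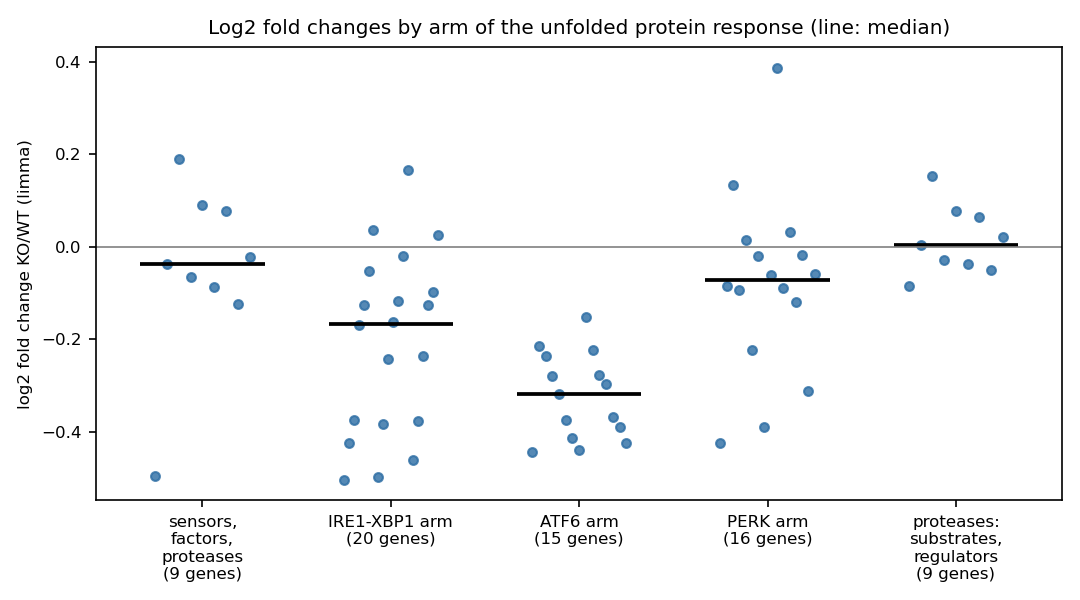
Log2 fold change of KO over WT from limma (vertical axis) for each tested gene (points) of the 9 sensors, factors and proteases, the 3 arms and the protease substrates and regulators, with the median of each list as a line. The medians are −0.037 for the 9 genes and −0.17, −0.32 and −0.072 for the IRE1-XBP1, ATF6 and PERK arms. The IRE1-XBP1 list holds partners of IRE1 beside targets of XBP1, so the medians do not rank the targets of the arms.

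The genes with the lowest *p*-values in the ATF6 arm were *Nucb1*, *Pdia4*, *Hspa5* and *Calr*. *Nucb1*, a calcium-binding protein of the Golgi, had a log2 fold change of −0.44 (adjusted *p* = 0.693 from limma). *Pdia4*, a disulfide isomerase, had −0.30, *Hspa5* (BIP, the main ER chaperone) −0.39 and *Calr* (calreticulin, a lectin chaperone) −0.32. *Hspa5* alone passed in DESeq2 (adjusted *p* = 0.0306), in which *Calr* had an adjusted *p* of 0.117. *Ppib*, an ER prolyl isomerase on none of the lists, is given for reference, with a log2 fold change of −0.44 (adjusted *p* = 0.693 from limma and 0.0494 from DESeq2). In the IRE1-XBP1 arm they were *Sdf2l1* and *Dnajc3*, both partners of BIP, with −0.50 and −0.42, *Hyou1*, a large ER chaperone, with −0.37, and *Pdia6*, a disulfide isomerase, with −0.38. None of these 4 passed in limma (adjusted *p* of 0.693, 0.737, 0.849 and 0.911), though *Sdf2l1* and *Hyou1* did without replicate 1 (adjusted *p* = 0.0242 and 0.0366 from limma). In the PERK arm they were *Dnajc3* again, *Chac1*, a glutathione-degrading enzyme, with −0.39, *Ero1l*, an ER oxidase, with −0.31, and *Ddit3* (CHOP) with −0.22. *Atf4*, the factor whose translation PERK raises, had 2318, 2010 and 2382 normalized counts in WT and 2229, 1933 and 2120.2 in KO.

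Levels of the arms were also taken relative to *Xbp1*, *Atf6* or *Eif2ak3*. Of the 15 ATF6 arm genes, 11 were lower relative to *Xbp1* in all 3 KO libraries, and of the 20 IRE1-XBP1 arm genes, 9 were, against 8.82% of all genes. In limma relative to *Xbp1*, 0 genes of either list passed, where 0.073% of all genes were lower, and 0 had an unadjusted *p*-value under 0.05 (2.04% of all genes lower). The median log2 change relative to *Xbp1* was −0.51 for the ATF6 arm and −0.35 for the IRE1-XBP1 arm, beside −0.19 over all genes. The IRE1-XBP1 list holds partners of IRE1 beside targets, so these medians do not compare targets alone. Relative to *Atf6*, 8 of the 15 ATF6 arm genes were lower in all 3 KO libraries (3.38% of all genes), with a median of −0.20 beside 0.12 over all genes. None of them passed in limma relative to *Atf6* (0.0812% of all genes lower), and none had an unadjusted *p*-value under 0.05 (1.42%). Relative to *Eif2ak3*, 7 of 16 PERK arm genes were (20.6% of all genes), with a median of −0.15 beside −0.076. In limma relative to *Eif2ak3*, 3 of these 16 were lower at an unadjusted *p*-value under 0.05 (5.48% of all genes) and 1 passed (1.23% of all genes lower), *Dnajc3*, with a log2 change relative to *Eif2ak3* of −0.50, an adjusted *p* of 0.0350 and a lower ratio in 3 of 3 pairs. The level of the 1 reference gene enters every value of such a fit, and the spread is estimated jointly over all genes. A pass is therefore a description and no test. Without a reference gene, *Dnajc3* had an adjusted *p* of 0.737 in limma. These comparisons were added after the values were seen.

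Among the protease substrates, *Srebf2* and *Srebf1*, the sterol and lipid factors cut by the same proteases as ATF6, had log2 fold changes of 0.15 and 0.065, *Scap*, their escort protein, one of −0.085, and *2410131K14Rik*, which lies in this list as a regulator of the site 1 protease, one of 0.078. None passed the test. Of 8 mRNAs known as substrates of IRE1 itself, 4 had 0 fragments and 3 were tested. *Tapbp*, *Hgsnat* and *Bloc1s1* had log2 fold changes of −0.062, −0.13 and 0.16, and *Bloc1s1*, at 20.0 to 41.5 normalized counts, ran from 0.79 in pair 1 to −0.42 in pair 2.

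The promoters were searched for the motif through which ATF6 is known to act, the ER stress element (ERSE), which is CCAAT, 9 bases of any kind and CCACG. The RefSeq promoter table for GRCm38.p6 (250 bases before to 50 after a start site) held 8 of the 9 genes, and the other was *Atf6*. On either strand, 0 of these 8 promoters had the ERSE, which 0.119% of all 32817 promoters had. The related ERSE-II (ATTGG, 1 base of any kind and CCACG, 0.0366% of all), the UPRE core (TGACGTGG, 0.676%) and the cAMP response element (TGACGTCA, 1.79%) were also in 0 of 8. The ends of the ERSE, which can overlap it, were seen alone: CCAAT in *Atf6b*, *Creb3l2* and *Eif2ak3* (37.4% of all promoters), and CCACG in *Creb3*, *Ern1* and *Mbtps1* (32.8%). No match says only that these letters are not in these windows. In the ATF6 arm, 6 of 14 promoters held the ERSE, and 5 of them are printed with the fixed letters in capitals, to show what was not found in the windows of the 8 genes.
Hspa5: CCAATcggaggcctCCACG
Calr: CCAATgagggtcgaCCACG
Creld2: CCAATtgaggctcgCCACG
Derl3: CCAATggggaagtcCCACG
Syvn1: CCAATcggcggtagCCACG
These sites lie on GRCm38.p6 at chr2:34772025-34772043 (plus strand), chr8:84847075-84847093 (plus), chr15:88819520-88819538 (minus), chr10:75893242-75893260 (minus) and chr19:6046532-6046550 (plus). *Hsp90b1* held the motif at 2 positions. In the IRE1-XBP1 arm, *Dnajc3* and *Pdia6* held it among 18 promoters, and in the PERK arm *Dnajc3* among 14. With the motif, *Creld2* had a log2 fold change of −0.41, *Derl3* of −0.28 and *Syvn1* of −0.15, and *Derl3* and *Syvn1* were not lower in all 3 pairs. A match of letters is a description of the sequence, and binding was not measured here.

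Among 7906 genes whose mean reached 100 normalized counts, the genes whose levels followed those of a sensor or factor most closely over the 6 libraries were found by the root mean square difference of their centred log2 values. For *Xbp1* these were *Txndc5* (difference 0.10 on the log2 scale), *Tmem154* (0.12) and *Nagk* (0.14), where the median of all genes was 0.41. *Txndc5*, a disulfide isomerase of the ER, had 1067, 904 and 1812 normalized counts in WT and 1949, 1197 and 1244 in KO. Like *Xbp1*, it was higher in KO in pairs 1 and 2 and lower in pair 3, which follows from how it was picked. For *Ern1* they were the Ig variable gene *Ighv14-3* (0.14), *Derl3* (0.18), which acts in ER-associated degradation, and another Ig variable gene, of the kappa locus (0.18), with a median of 0.59. For *Atf6* they were *Cln3* (0.057), *Trabd* (0.058) and *Btg2* (0.065), with a median of 0.27. For *Eif2ak3* they were *Malat1* (0.042), a nuclear noncoding RNA, *Snx9* (0.042) and *Egln1* (0.046), with a median of 0.18. Ig variable genes share reads with paralogs, so their levels are uncertain.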

How the data were processed

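B cell RNA was sequenced in 3 KO and 3 WT libraries. Per the methods of the study, the authors trimmed reads with cutadapt, aligned them with STAR (version 2.6.1a) to GRCm38, counted properly paired fragments on exons by strand with featureCounts (Subread 1.6.3) and the Gencode vM19 annotation, leaving out reads of low mapping quality, and scaled the libraries with size factors of DESeq2. The deposited values are therefore normalized counts (a signal, not raw counts), and the scaling hides a change shared by most transcripts. Whole fragments were recovered (100% of values above 0 were whole multiples of the library's step, within 0.02). Gencode vM21 (GRCm38) gave symbols and exons for 54409 of 54446 identifiers.

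The test was limma (3.58.1, R 4.3.3; trend) on log2(normalized count + 1), over genes whose mean reached 10, with genotype and batch in the model, two-sided, Benjamini-Hochberg adjusted over all 12322 genes, threshold 0.05. Such fold changes understate the change of low genes. edgeR 4.0.16 and DESeq2 1.42.0 on recovered fragments, other scalings, pseudocounts and filters, and the fits without each replicate were alternatives. The scripts were tested on simulated data. Intervals of a pair are exact binomial (95%) and cover counting error only, as does the floor of 3 fragments for a count of 0.

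Littermates share a replicate number, and libraries of a pair deviated together (correlations over genes of 0.328, 0.685 and 0.170), so the pairs are kept as a block. The 9 genes and all lists were chosen with earlier results of these data known. Named genes were the 9, up to 4 per list with the lowest *p*-values, reference genes, and the closest 3 genes to *Xbp1*, *Ern1*, *Atf6* and *Eif2ak3*. *Atf4*, *Creld2*, *Derl3*, *Syvn1*, *Hsp90b1* and the markers were named for their role or motif, after values were seen.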

Additional observations from a re-analysis of the deposited data

How the results depend on the processing

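The 9 genes had 117 values under alternatives, of which 111 had the reported direction and none passed the threshold. The 6 that turned were *Creb3* under total count scaling (0.012) and, with 1 replicate left out, *Xbp1* (range −0.077 to 0.48), *Atf6* (−0.27 to 0.097), *Creb3* (−0.088 to 0.050), *Creb3l2* (−0.17 to 0.40) and *Mbtps2* (−0.066 to 0.00094). *Ern1* ran from −0.80 to −0.12. The median of the 9 genes stayed between −0.10 and −0.0013. Without the replicate block it was −0.037, and the log2 fold change of *Xbp1* was 0.19 (adjusted *p* = 1.00 from limma). The block changed no call.

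DESeq2 called 22 genes lower and 1 higher over all genes, with an adjusted *p* of 1.00 for each of the 9. With 1 replicate left out, limma called from 0 to 168 genes lower and from 0 to 3 higher, the most without replicate 1 (168 and 3) and 1 lower without replicate 2. The cause was not tested. Of 298 values of the other named genes, 289 kept direction and call, 4 passed the threshold that they missed in the reported test (*Hspa5* and *Ppib* in DESeq2, *Sdf2l1* and *Hyou1* without replicate 1), and 5 turned: *Eif2ak2* under total count scaling (0.0029), and, with 1 replicate left out, *Bloc1s1* (−0.15 to 0.46), *Tent5c* (−0.033 to 0.52), *Eif2ak4* (−0.019 to 0.20) and *Eif2ak2* (−0.090 to 0.071). Depth limits *Creb3l2* most, with 43 to 101 fragments per library.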
